A study of Mus musculus with 2 samples.

Results

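The integrin subunits and laminin chains were examined in RNA sequencing of mouse eyeballs from 1 sample of the oxygen-induced retinopathy model (OIR) and 1 control sample, both of the strain C57BL/6. Per the series' design text, OIR mice were exposed to hyperoxia at the age of 7 days, were returned to ordinary air after 5 days, and gave their eyes on day 17. How the control mice were raised, and their age at collection, is not given. In this model, high oxygen closes and halts retinal vessels, and the retina that lacks vessels then becomes hypoxic and sprouts new ones. The number of eyes or animals behind each sample is not given, and each group is 1 library, so no difference below has a replicate check. The 37 genes were taken by symbol from the 47644 genes of the table: 18 integrin alpha subunits, 8 integrin beta subunits, and 5 alpha, 3 beta and 3 gamma chains of laminin. Only Itgam stood on 2 rows, and the row with reads was kept.

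Integrins are receptors that join cells to the matrix around them and to other cells. Each is a pair of 1 alpha and 1 beta subunit, and the pair sets the ligand: collagens, laminins, the RGD sequence of fibronectin and vitronectin, or adhesion proteins on other cells. Laminins are cross-shaped proteins of 1 alpha, 1 beta and 1 gamma chain that form the sheet of every basement membrane. In the eye they underlie the vessels, the inner limiting membrane of the retina, Bruch's membrane, the lens capsule and the corneal epithelium.

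Reads in genes numbered 20378793 for OIR and 15741235 for the control. Of all genes, 15883 reached an FPKM (a read level scaled to transcript length and library size) of at least 1 in either library, and these are the genes counted below as measured. The difference is that of log2(FPKM + 1), OIR minus control, a scale on which genes of low FPKM show too small a change; at least 2-fold means a difference of at least 1 or at most -1. Beside it stands the ratio of read shares, OIR over control, with an exact conditional 95% interval that covers counting error only. Ribosomal RNA genes took 0.153% of reads in OIR eyes and 0.00791% in control eyes, and the median difference of all measured genes was 0.11. As checks of the tissue, the 7 rod markers summed to 16086 FPKM in OIR eyes and 15992 in control eyes. The 10 lens markers summed to 52493 and 73453 FPKM in OIR and control eyes, with 9 of them lower by their counting interval and Lim2 at 0 reads in both libraries. The 5 markers of the retinal pigment epithelium summed to 648 FPKM in OIR eyes and 599 in control eyes, and the 7 ganglion cell markers to 241 and 353 FPKM in OIR and control eyes.

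Most integrin and laminin genes stood higher in OIR, by modest amounts. Of the 37 genes, 30 were measured: 24 reached 1 FPKM in both libraries, 6 in OIR alone and 0 in the control alone, and those 6 had to be higher in OIR to be counted. Of the 30, 26 had a difference above 0, against 64.9% of all measured genes, and the median difference was 0.50. Over the 24 genes at 1 FPKM in both libraries, 20 lay above 0 and the median was 0.35, where 14517 genes chosen the same way had a median of 0.10. Itga4, Itgb4 and Lama4 were at least 2-fold higher, 3 of 30 genes against 3.07% of all measured genes, and 0 were at least 2-fold lower, against 0.718%. A ratio of read shares of at least 2 was reached by 10 of the 30, against 6.38%, and by 5 of the 24 present in both libraries, against 3.20% of the genes chosen the same way. The counting interval lay above 1 for 23 of the 30 genes (36.7% of all measured genes) and below 1 for 2, Itgb5 and Lama2 (14.7%). These interval counts rest on shares of total reads and were not recomputed under other scalings. Some intervals end close to 1, that of Itga7 starting at 1.00 and that of Lama1 ending at 1.01.

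**Figure D1:**
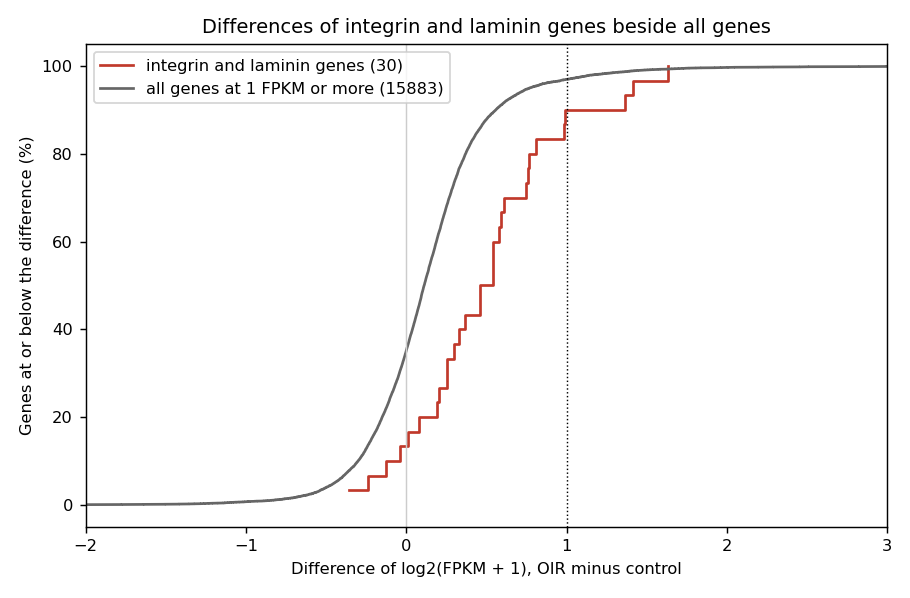
Cumulative share of genes (%) by their difference of log2(FPKM + 1), OIR minus control, for the 30 measured integrin and laminin genes and for all 15883 measured genes. The curve of the integrin and laminin genes lies to the right, with a median of 0.50 beside 0.11, and 3 of its genes lie at or past the dotted line at 1.

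These values varied with transcript length and scaling. Over 20 bins of transcript length, the median difference of a bin ran between -0.09 and 0.23, and the integrin and laminin genes fell in bins with medians of 0.02 to 0.23. Centred within those bins, their median was 0.38. Scaling by the authors' factors moved each log2 ratio by -0.14. With those factors, and with centring on all genes or within length bins, 24 of the 30 genes lay above 0, and Itga6 and Itga8 changed sign. Of all measured genes, 48.8% lay above 0 with the factors, and either centring puts their median at 0. With lens, muscle, erythrocyte, mitochondrial and rRNA genes left out of the total, 25 lay above 0, against 59.1%, and Itga8 changed sign. On TPM 27 lay above 0, against 74.2%, and Lamc3 changed sign.

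**Figure D2:**
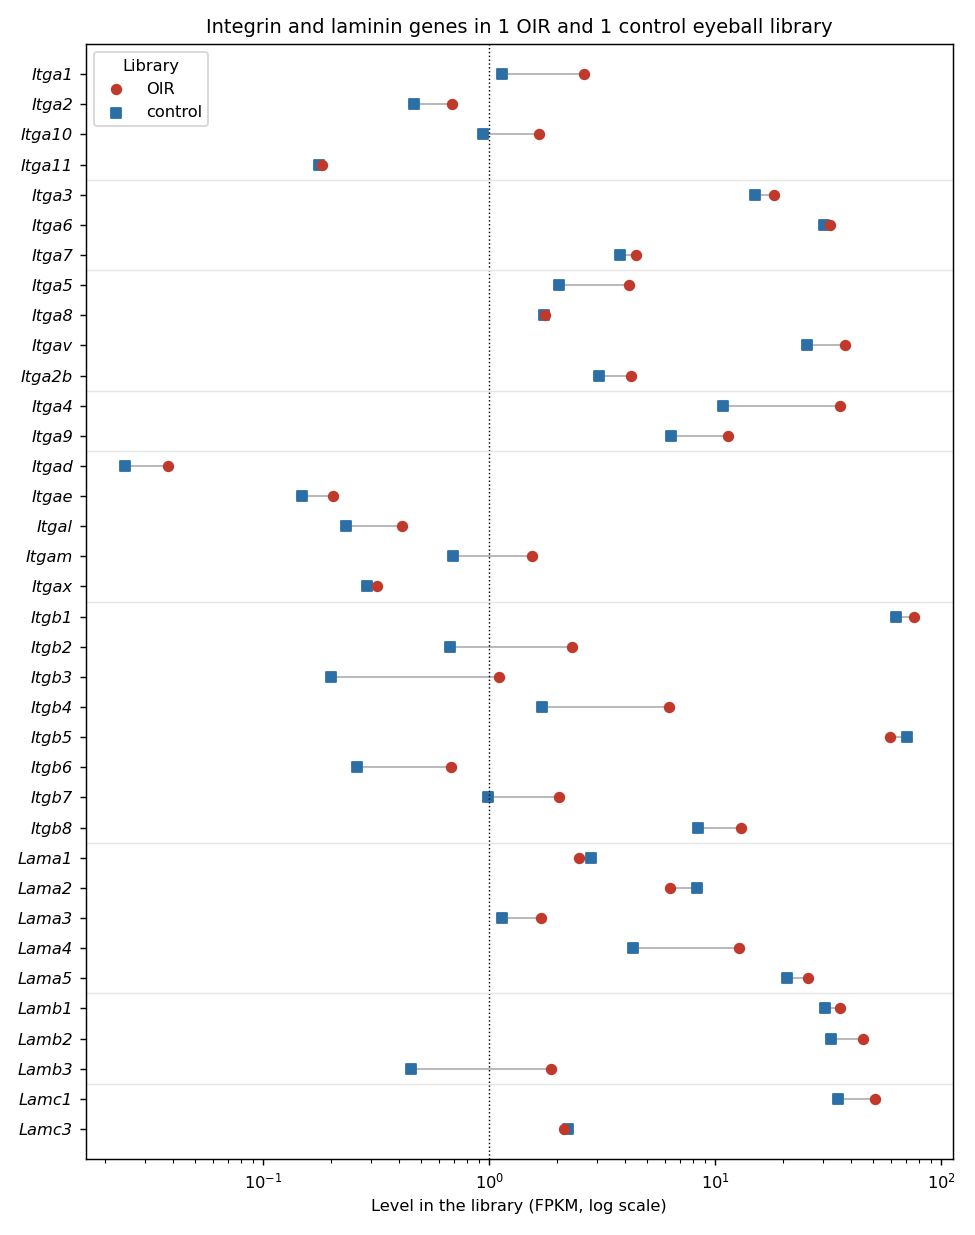
Level of the integrin and laminin genes (FPKM, log axis) in the OIR library (circles) and the control library (squares), grouped by chain and ligand class, with a dotted line at 1 FPKM. Levels run from 0.0378 FPKM for Itgad to 75.5 for Itgb1 in OIR, and Itgb5, Lama1, Lama2 and Lamc3 are the 4 genes with the circle on the left.

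Itga4 had the highest difference among the alpha genes. It is grouped here with Itga9, as subunits that recognise fibronectin's variable region, VCAM-1 and other proteins without the RGD sequence. The difference of Itga9 was 0.75, below those of Itga1 at 0.77 and Itga5 at 0.76. Itga4 (ENSMUSG00000027009, chromosome 2, 79255426 to 79333123 on mm10) is the alpha subunit of the receptor by which leukocytes bind VCAM-1 on endothelium. It had 2665 reads in OIR eyes and 625 in control eyes, or 35.6 and 10.8 FPKM in OIR and control eyes, a difference of 1.63 and a ratio of 3.29 (3.02 to 3.60). The authors' deposited table, on their own scaling, gives log2 fold changes of 1.58 for Itga4, 1.73 for Itgb4 and 1.41 for Lama4. Itga4 shares exon bases with Cerkl, a gene whose human mutations cause retinal degeneration, on the opposite strand, over 8.04% of the exon bases of Itga4. Cerkl had 1013 reads in OIR eyes and 265 in control eyes, a ratio of 2.95 (2.58 to 3.39). The strand setting of the counting is unknown, so reads in the shared stretch cannot be assigned to either gene. Itga9, a related subunit that binds tenascin-C and is known from lymphatic valves, had 439 reads in OIR eyes and 190 in control eyes, 11.4 and 6.37 FPKM in OIR and control eyes, and a ratio of 1.78 (1.5 to 2.13).

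The RGD-binding alpha subunits were higher or nearly level. Itgav, the alpha subunit that pairs with 5 different beta subunits, stood at 37.5 FPKM in OIR eyes and 25.5 in control eyes, a ratio of 1.47 (1.36 to 1.59). Itga5, the classical fibronectin receptor subunit and a gene of sprouting endothelium, had 371 reads in OIR eyes and 141 in control eyes, with a ratio of 2.03 (1.67 to 2.49). The platelet subunit gene Itga2b had a ratio of 1.38 (0.979 to 1.98) from 95 reads in OIR eyes and 53 in control eyes. Itga8, the nephronectin receptor subunit, had 76 reads in OIR eyes and 58 in control eyes, and its interval also included 1 (0.710 to 1.45).

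Among the alpha subunits for collagen, Itga1 was the most abundant, with 321 reads in OIR eyes and 107 in control eyes, a ratio of 2.32 (1.86 to 2.91). Itga1 and Itga2 are collagen receptor subunits, the first common on vessels and smooth muscle and the second on epithelium and platelets. Itga10, best known from cartilage, had 124 reads in OIR eyes and 54 in control eyes, a ratio of 1.77 (1.28 to 2.49); 33.5% of its exon bases overlap the gene Gm42957 on the same strand, which had 2 reads in OIR eyes and 0 in control eyes. Itga2 and Itga11, a subunit of fibroblasts, stayed below 1 FPKM in both libraries, with ratios of 1.47 (0.936 to 2.35) and 1.03 (0.457 to 2.39).

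The laminin-binding alpha subunits had the lowest median difference of the alpha classes, 0.19. Itga6, which pairs with Itgb1 in many cells and with Itgb4 in the hemidesmosomes of epithelium, stood at 32.1 FPKM in OIR eyes and 30.4 in control eyes, a ratio of 1.06 (0.977 to 1.15). Itga3, an epithelial and glial laminin receptor subunit, stood at 18.1 FPKM in OIR eyes and 15.0 in control eyes, a ratio of 1.21 (1.09 to 1.33). Itga7, the laminin receptor subunit of skeletal muscle, had 366 reads in OIR eyes and 239 in control eyes and a ratio of 1.18 (1.00 to 1.40). The 8 skeletal muscle markers stood beside it at a sum of 120.9 FPKM in OIR eyes and 126.5 in control eyes. Of the 7 measured ones, 6 lay above 0 and 1 below, with a median ratio of 1.19. The counting interval lay above 1 for 1, below 1 for 1, and included 1 for 5.

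The subunits grouped here as those of white blood cells, which leave out Itga4, had few reads, at most 90 in either library. Itgb2, the beta subunit that all 4 leukocyte pairs share, had 85 reads in OIR eyes and 19 in control eyes, 2.32 and 0.671 FPKM in OIR and control eyes, and a ratio of 3.46 (2.08 to 6.02). On the log2(FPKM + 1) scale its difference was 0.99. Itgam, which with Itgb2 forms the Mac-1 receptor of microglia, macrophages and neutrophils, had 90 reads in OIR eyes and 31 in control eyes, a ratio of 2.24 (1.48 to 3.49). Of its exon bases 68.7% overlap Gm49368 on the same strand, the row at 0 reads in both libraries. Itgal of lymphocytes had 32 reads in OIR eyes and 14 in control eyes, Itgae 16 and 9 in OIR and control eyes, Itgax of dendritic cells 10 and 7, and Itgad 2 and 1, each with an interval that included 1. Itgb7, which pairs with Itga4 or Itgae on gut-homing lymphocytes, had 64 reads in OIR eyes and 24 in control eyes and a ratio of 2.06 (1.27 to 3.44).

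Leukocyte markers give the scale for these counts. The 10 microglia and macrophage markers summed to 77.1 FPKM in OIR eyes and 49.4 in control eyes, and 8 of the 9 measured ones lay above 0. Cx3cr1, P2ry12 and Csf1r had ratios of 2.37 (1.85 to 3.06), 1.21 (0.829 to 1.77) and 1.33 (1.16 to 1.53). The 8 lymphocyte markers summed to 1.56 FPKM in OIR eyes and 0.955 in control eyes, with Cd3e, Cd3g, Cd3d and Ms4a1 at 0 reads in the control and at most 2 in OIR. The 6 neutrophil markers summed to 1.32 FPKM in OIR eyes and 0.711 in control eyes, and Mpo, Elane and Ly6g had no read in either library. The 7 platelet markers summed to 5.70 FPKM in OIR eyes and 3.54 in control eyes, all 7 had a read in OIR, and Gp6 had none in the control. In bulk samples, a change in the number of cells of a type and a change in RNA per cell cannot be told apart. The part of cell numbers in these results was not tested.

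Of the 8 beta subunits 7 were measured, 6 with an interval above 1 (36.7% of all measured genes) and 1 below it (14.7%). Itgb2, Itgb3 and Itgb7 were measured through OIR alone, where they had to be higher, so they support nothing in this count. Of the others, Itgb1, Itgb4 and Itgb8 had intervals above 1 and Itgb5 below it. Itgb1, the partner of 12 alpha subunits, was the most abundant of the 37 genes in OIR, at 75.5 FPKM in OIR eyes and 63.1 in control eyes, a ratio of 1.20 (1.13 to 1.27). Itgb5 (ENSMUSG00000022817, chromosome 16, 33829665 to 33949153), the vitronectin receptor subunit that the pigment epithelium uses to take up shed outer segments, was lower. It had 1795 reads in OIR eyes and 1640 in control eyes, 59.5 and 70.3 FPKM in OIR and control eyes, and a ratio of 0.845 (0.790 to 0.905). Itgb8, which with Itgav activates latent TGF-beta and is known from neuroepithelium and glia, stood at 13.1 FPKM in OIR eyes and 8.43 in control eyes, with a ratio of 1.55 (1.41 to 1.71).

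The highest ratios of all 37 genes fell on scarce beta subunits and 1 laminin chain. Itgb3 (ENSMUSG00000020689, chromosome 11, 104608000 to 104670476), the vitronectin and fibrinogen receptor subunit of platelets, osteoclasts and sprouting endothelium, had 114 reads in OIR eyes and 16 in control eyes. Its level was 1.10 FPKM in OIR eyes and 0.200 in control eyes, with a ratio of 5.50 (3.25 to 9.95), the highest of the 37, but a difference of 0.81 on the log2(FPKM + 1) scale. Itgb4 (ENSMUSG00000020758, chromosome 11, 115974709 to 116008412), the hemidesmosome subunit of epithelium, had 519 reads in OIR eyes and 110 in control eyes, 6.25 and 1.71 FPKM in OIR and control eyes. Its difference was 1.42 and its ratio 3.64 (2.96 to 4.52). Itgb6, a subunit of wounded epithelium, stayed below 1 FPKM in both libraries with 27 reads in OIR eyes and 8 in control eyes, a ratio of 2.61 (1.15 to 6.64).

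**Figure D3:**
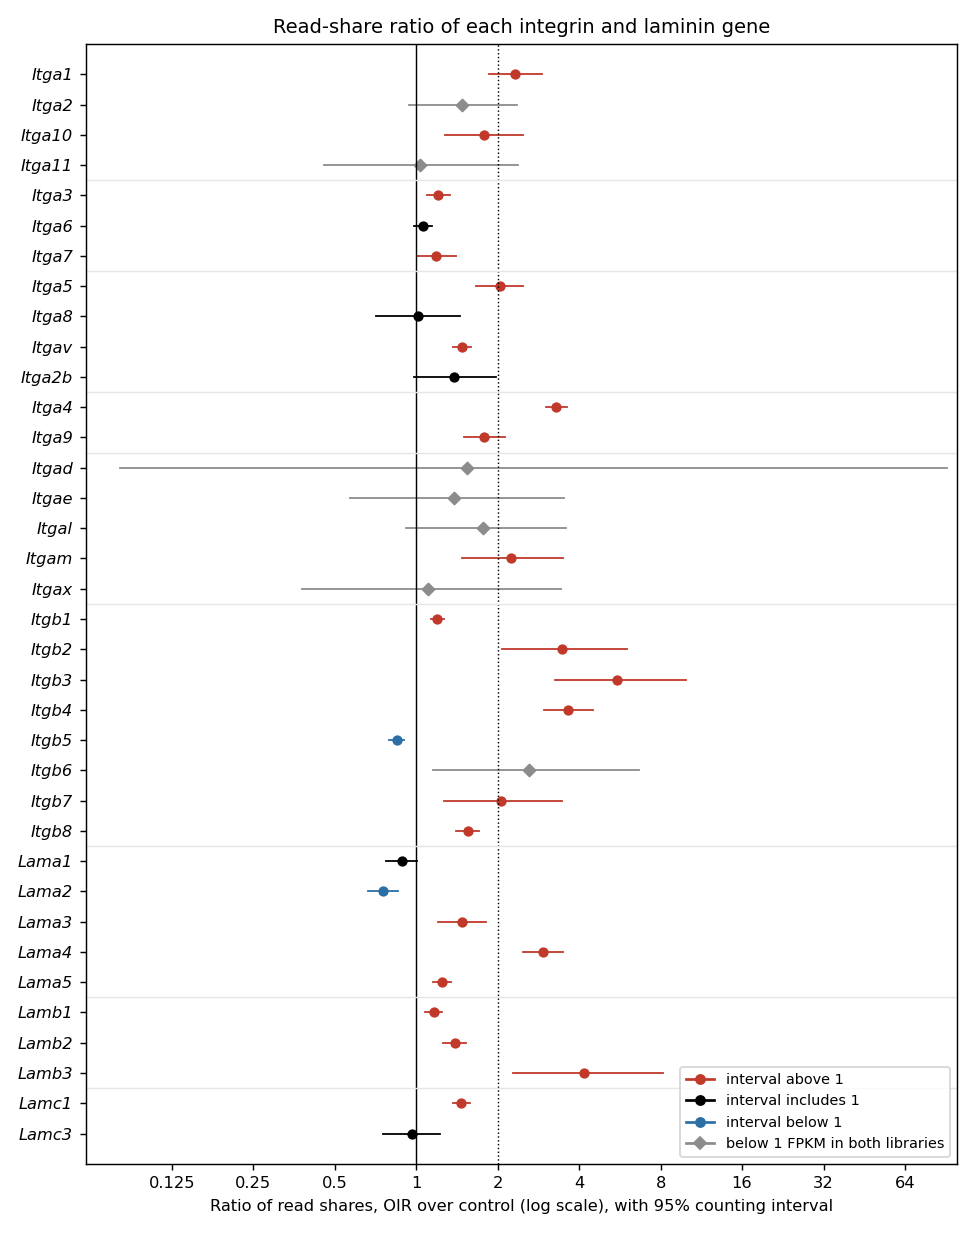
Ratio of read shares, OIR over control (log axis), of the integrin and laminin genes, each with its exact conditional 95% counting interval; the solid line marks 1 and the dotted line 2. Itgb5 and Lama2 are the 2 genes whose whole interval lies below 1, and Itgb3, Lamb3, Itgb4, Itgb2, Itga4 and Lama4 have whole intervals above 2.

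Set against their partners, integrin subunits did not move in step. Of 24 known pairs, 17 had both genes measured, and the ratio of the beta gene was divided by that of the alpha gene. Itgb4 exceeded Itga6 by a factor of 3.44 (2.75 to 4.33), and Itgb3 exceeded Itgav by a factor of 3.74 (2.19 to 6.80) and Itga2b by 3.97 (2.07 to 7.92). In the other direction, Itgb1 fell behind Itga4 at 0.363 (0.327 to 0.403), Itga1 at 0.516 (0.408 to 0.649) and Itga5 at 0.589 (0.477 to 0.723), and Itgb5 fell behind Itgav at 0.574 (0.517 to 0.637). Itgb8 kept step with Itgav within counting error, at 1.05 (0.928 to 1.19), as did Itgb1 with Itga3 at 0.992 (0.883 to 1.11). Over the 17 pairs, the interval lay above 1 for 4 and below 1 for 7. Itgb3, Itga10, Itgb2, Itgam and Itgb7 were measured through OIR alone, where they had to be higher, so the counts over pairs support nothing: both pairs of Itgb3 are among the 4, and Itga10 with Itgb1 is among the 7. Pairs that share a gene are not independent. The scaling between libraries and the length used for FPKM cancel in each ratio. A difference between libraries that varies with transcript length, as over the length bins above, does not cancel. The choice of the 17 pairs rests on FPKM.

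**Figure D4:**
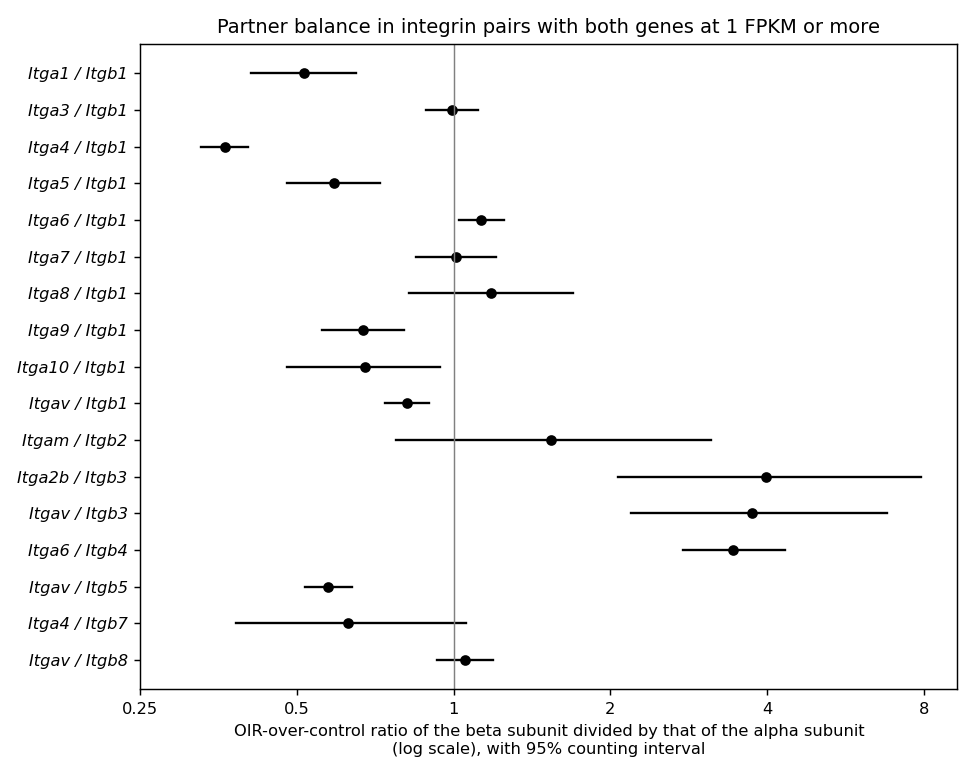
For each of the 17 integrin pairs with both genes measured, the OIR-over-control ratio of the beta subunit divided by that of the alpha subunit (log axis), with its exact 95% counting interval. Itga6 with Itgb4 and the 2 pairs of Itgb3 lie above 2, and Itga4 with Itgb1 is lowest at 0.363.

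Each class had a different make-up in the 2 libraries, measured as a share of the summed FPKM of the class. Itgb5 made up 37.1% of the beta total in OIR eyes and 48.3% in control eyes, and Itgb1 47.1% and 43.3% in OIR and control eyes. Itga4 made up 22.7% of the alpha total in OIR eyes and 10.5% in control eyes, while Itga6 made up 20.4% in OIR eyes and 29.5% in control eyes. Such shares rest on the lengths behind FPKM: with the gene length in the deposited table, Itga4 made up 18.4% in OIR eyes and 8.24% in control eyes, and Itgb5 34.0% and 45.4% in OIR and control eyes.

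**Figure D5:**
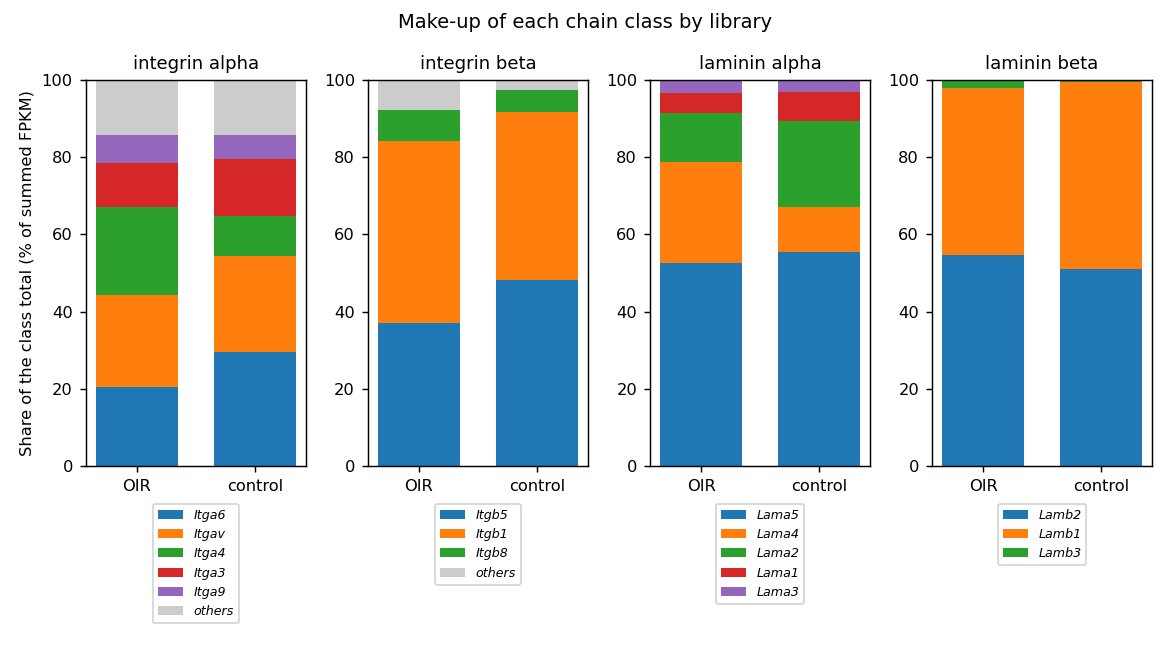
Share of each gene in the summed FPKM of its class (%), for the integrin chains and the alpha and beta chains of laminin, in the OIR library (left bar) and the control library (right bar); genes under 5% in both libraries are joined as others in the integrin panels, or shown by name where a class has 1. Itga4 and Lama4 take larger shares in OIR, at 22.7% and 26.0%, than in the control, at 10.5% and 11.6%.

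Laminin alpha chains, which carry the receptor-binding end, split in direction. Lama4 (ENSMUSG00000019846, chromosome 10, 38965515 to 39110188), the alpha chain of vessel and peripheral nerve basement membranes, had 684 reads in OIR eyes and 180 in control eyes. It stood at 12.7 FPKM in OIR eyes and 4.34 in control eyes, a difference of 1.36 and a ratio of 2.94 (2.49 to 3.48). Lama5, the broad chain of mature epithelial and vessel basement membranes, stood at 25.7 FPKM in OIR eyes and 20.7 in control eyes, a ratio of 1.24 (1.15 to 1.34). Lama2 (ENSMUSG00000019899, chromosome 10, 26980036 to 27619758), the chain of muscle and Schwann cell basement membranes, was lower, with 466 reads in OIR eyes and 478 in control eyes, 6.29 and 8.35 FPKM in OIR and control eyes, and a ratio of 0.753 (0.661 to 0.857). Lama1, the chain of the embryonic inner limiting membrane and lens capsule, had 483 reads in OIR eyes and 422 in control eyes, and its ratio of 0.884 had an interval that included 1 (0.774 to 1.01). The ratio of Lama4 exceeded that of Lama2 by a factor of 3.90 (3.15 to 4.83) and that of Lama5 by 2.36 (1.97 to 2.85).

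Vessel markers stood beside Lama4 and the RGD-binding subunits. All 10 endothelial markers lay above 0, 9 with a counting interval above 1 and 1 with an interval that included 1. They summed to 198 FPKM in OIR eyes and 123 in control eyes, with a median ratio of 1.85. The first listed, Pecam1, Cdh5 and Tie1, had ratios of 2.09 (1.82 to 2.40), 2.12 (1.85 to 2.44) and 2.00 (1.72 to 2.34). The 8 pericyte and smooth muscle markers summed to 210 FPKM in OIR eyes and 172 in control eyes, 6 above 0 and 2 below. The 6 erythrocyte markers summed to 1641 FPKM in OIR eyes and 592 in control eyes. Markers of Müller glia, which build the inner limiting membrane, summed to 2005 FPKM in OIR eyes and 2852 in control eyes over 8 genes, with 3 intervals above 1 and 4 below. The 4 astrocyte markers summed to 165 FPKM in OIR eyes and 64.6 in control eyes, most of it from Gfap, at 144 and 43.9 FPKM. Of the 3 measured astrocyte markers, 2 had intervals above 1 and 1 below. The 7 markers of stromal fibroblasts summed to 241 FPKM in OIR eyes and 218 in control eyes, with 3 intervals above 1 and 3 below. The part of vessel, glial and stromal cells in the laminin values was not tested.

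The beta and gamma chains that most laminins share were moderately higher. Lamc1, the gamma chain of nearly all laminins, stood at 51.1 FPKM in OIR eyes and 34.8 in control eyes, a ratio of 1.47 (1.37 to 1.58). Lamb2, the beta chain of retinal and synaptic basement membranes, stood at 45.1 FPKM in OIR eyes and 32.6 in control eyes, a ratio of 1.39 (1.25 to 1.53), and Lamb1, the more widespread one, at 35.7 and 30.8 FPKM in OIR and control eyes, a ratio of 1.16 (1.08 to 1.25). Which of these beta chains was more abundant depended on the length used: with the deposited gene length, Lamb1 stood at 15.6 in OIR eyes and 13.5 in control eyes and Lamb2 at 9.46 and 6.83 in OIR and control eyes. Lamc3, a gamma chain found in the retina with Lamb2, had 158 reads in OIR eyes and 127 in control eyes and a ratio of 0.961 (0.756 to 1.22). The ratio of Lamc1 exceeded that of Lamc3 by a factor of 1.53 (1.19 to 1.96).

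Lama3 and Lamb3, chains of the laminin of hemidesmosomes, were scarce and higher in OIR. Lamb3 (ENSMUSG00000026639, chromosome 1, 193207699 to 193343878) had 70 reads in OIR eyes and 13 in control eyes, 1.87 and 0.449 FPKM in OIR and control eyes, and a ratio of 4.16 (2.28 to 8.20). Lama3 had 277 reads in OIR eyes and 145 in control eyes, a ratio of 1.48 (1.20 to 1.82). The ratio of Lamb3 exceeded that of Lama3 by a factor of 2.82 (1.48 to 5.74). Lamb3 reached 1 FPKM in OIR alone, where it had to be higher to be counted, so this comparison supports nothing about the chains. Itgb4, a receptor subunit for this laminin, had a ratio 0.876 of that of Lamb3 (0.429 to 1.67), an interval too wide to show closeness. The same limit of Lamb3 applies. The ratio of Itgb4 itself was 3.64 (2.96 to 4.52), beside 1.48 for Lama3.

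Markers of corneal and conjunctival epithelium, where hemidesmosomes are found, were high in OIR. Each of the 10 had a counting interval above 1, 6 passed the 2-fold threshold, and they summed to 1288 FPKM in OIR eyes and 435 in control eyes. The first listed, the keratins Krt5, Krt14 and Krt12, had ratios of 3.56 (3.44 to 3.69), 2.05 (1.82 to 2.31) and 2.48 (2.35 to 2.62). Of 4 other hemidesmosome genes, Col17a1, the transmembrane collagen of that junction, had 2420 reads in OIR eyes and 542 in control eyes, with a ratio of 3.45 (3.14 to 3.79). The other members, Plec, Cd151 and Dst, which are also expressed outside epithelium, had ratios of 1.10 to 1.46. The part of the amount of surface epithelium in the values of Itgb4, Itgb6, Lama3 and Lamb3 was not tested.

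Placed in the 12 laminin trimers considered, the alpha chain was the least abundant member of most. Lama4 was the lowest chain of the trimers with Lamb1 or Lamb2 and Lamc1, at 12.7 FPKM in OIR eyes and 4.34 in control eyes, and Lama5 that of its trimers with Lamc1, at 25.7 and 20.7 in OIR and control eyes. Lamc3 was the lowest chain of its 3 trimers, at 2.15 FPKM in OIR eyes and 2.24 in control eyes. Levels of transcripts say nothing here on which trimers were assembled.

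Other basement membrane genes did not follow the laminins as a group. The 11 laminin chains had a median difference of 0.33, with 8 intervals above 1 and 1 below, Lamb3 being measured through OIR alone. Of 19 partners of laminin, 8 had a counting interval above 1 (36.7% of all measured genes) and 8 below 1 (14.7%). The median difference of the partners was 0.11, equal to that of all measured genes. Agrn, the agrin proteoglycan that binds laminin at basement membranes and synapses, was the only one at least 2-fold higher, at 63.7 FPKM in OIR eyes and 29.1 in control eyes, a ratio of 2.19 (2.09 to 2.29). The differences of the list ran from -0.61 for Col4a3, a collagen IV chain, to 1.10 for Agrn. The lens markers, given above, also stood lower, and their part in the values of this list was not tested. Of 6 laminin-related netrin genes, 4 were measured, with a median difference of 0.20. Ntng2 and Ntng1, membrane-bound netrins of neurons, had ratios of 1.48 (1.37 to 1.60) and 0.831 (0.737 to 0.937), and the guidance gene Ntn1 had 1.45 (1.07 to 1.98).

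Ligands of the integrins outside the laminins showed larger differences in a few genes. Of 16 RGD and matricellular ligands, 13 were measured and 4 were at least 2-fold higher: Fn1, the fibronectin gene, with 7048 reads in OIR eyes and 1146 in control eyes and a ratio of 4.75 (4.46 to 5.06), Vwf with 3.38 (2.98 to 3.85), Cyr61 with 2.92 (2.32 to 3.70) and Thbs1 with 2.75 (2.50 to 3.03). The median of the 13 was 0.17, and 3 had intervals below 1, the lowest difference being -0.48, while Fga and Fgb, of fibrinogen, had no read in either library. Among 7 measured cell-surface ligands, Icam1 and Icam2, which Itgb2 receptors bind, had ratios of 2.14 (1.54 to 3.00) and 2.09 (1.36 to 3.29), and the junction protein gene F11r had 2.02 (1.73 to 2.37). Vcam1, the ligand of Itga4 and named after its values were seen, had a ratio of 1.26 (1.05 to 1.52). The 6 latent TGF-beta genes had a median of 0.31. Lrrc32, which holds latent TGF-beta for Itgb8, had a ratio of 2.86 (2.07 to 4.03), and Tgfb1 and Tgfb2 had 1.52 (1.23 to 1.87) and 1.25 (1.18 to 1.34).

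Of 29 adaptor and kinase genes, 28 were measured, 24 lay above 0, none had a difference of at least 1 on the log2(FPKM + 1) scale, and the median difference was 0.30. The largest differences on that scale were those of Actn4, an actin cross-linker, at a ratio of 1.64 (1.57 to 1.71), Parvg, a parvin of blood cells, at 1.94 (1.27 to 3.05), and Fermt3, the blood cell kindlin, at 2.12 (1.5 to 3.03). The highest ratio of the list was that of Fermt1, the epithelial kindlin, named after its values were seen: it had 60 reads in OIR eyes and 14 in control eyes, a ratio of 3.31 (1.83 to 6.41), a difference of 0.65, and reached 1 FPKM in OIR alone. The only gene of the list with an interval below 1, and named for that after its values were seen, was Itgb1bp1, which binds the Itgb1 tail, at 0.769 (0.669 to 0.883).

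Windows upstream of the start site were available for 23 of the 37 genes, from RefSeq on GRCm38.p6, the build also called mm10. The 250 bases before the start are shown for Itga4, the only one of the 3 genes at least 2-fold higher with a window, and for Itgb5 and Lama2, the genes with intervals below 1. They are chr2:79255176-79255425 on the plus strand, chr16:33829415-33829664 on the plus strand and chr10:27616943-27617192 on the minus strand, and that of Lama2 belongs to a start 2816 bases from the gene start in the table. Capitals mark matches, on either strand, to TGANTCA of AP-1, ACGTG of the hypoxia response element, or GAGGAAG of PU.1.
Itga4: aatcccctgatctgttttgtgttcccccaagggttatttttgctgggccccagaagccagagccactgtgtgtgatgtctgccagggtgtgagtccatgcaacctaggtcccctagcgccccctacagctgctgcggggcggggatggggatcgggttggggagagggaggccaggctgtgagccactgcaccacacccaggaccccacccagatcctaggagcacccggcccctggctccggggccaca
Itgb5: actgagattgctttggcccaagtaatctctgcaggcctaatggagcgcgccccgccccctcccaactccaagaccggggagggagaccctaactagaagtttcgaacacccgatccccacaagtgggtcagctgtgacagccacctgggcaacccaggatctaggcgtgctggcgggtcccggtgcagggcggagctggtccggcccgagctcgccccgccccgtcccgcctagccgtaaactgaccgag
Lama2: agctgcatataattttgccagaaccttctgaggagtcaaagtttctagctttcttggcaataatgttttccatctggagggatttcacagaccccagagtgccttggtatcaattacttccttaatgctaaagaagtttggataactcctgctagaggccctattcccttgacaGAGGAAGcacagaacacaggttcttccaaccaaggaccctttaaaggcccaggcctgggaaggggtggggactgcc
The only match in the windows shown is 1 PU.1 sequence in that of Lama2. Over the 23 genes, the AP-1 sequence was found for 1 (Itgax), the hypoxia core for 1 (Itga9) and the PU.1 sequence for 6. Of all 32817 windows of this length, 6.75%, 16.6% and 10.6% hold these sequences, in that order. The windows of Itga9 and of Lamb3, 1 of the 6, belong to starts 105002 and 94295 bases from the gene start. A match is a description of letters, and the absence of a match in these windows says nothing on the factors.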

How the data were processed

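RNA of eyeballs from 1 OIR and 1 control sample was sequenced from NEBNext Ultra libraries, per the labels' protocol. The submitters' processing notes name mm10, Bowtie2 2.2.3, TopHat2 2.0.12 and HTSeq 0.6.1; settings and strand use were not stated. Per the file headers, the deposited table holds read counts, FPKM, scaled counts (a signal, used for the authors' factors), log2 fold changes, and p-values from 1 library against 1; the authors' p-values, and the marks of change that go with them, were not used. After 5 broken lines were dropped, the length implied by count and FPKM was equal between libraries, within 0.1%, for all 22320 genes with reads in both. For 32 of the 37 genes this length was below the deposited one, down to 0.210 of it. GENCODE M21 gave exon overlaps, found for 12 of the 37 genes.

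With 1 library per group no test was made. Exact conditional (Clopper-Pearson) 95% intervals were computed with scipy 1.17.1 in Python 3.11.15 and checked on simulated counts; the labels name no molecular identifiers, so reads are not independent. In a gene of median length, 3 reads equal 0.0550 FPKM in OIR eyes and 0.0712 in control eyes. All but 1 of the 37 genes are named, and that 1 is counted but not reported here; partner genes were named if at least 2-fold apart or else as the 3 with the largest difference, exceptions being marked or ends of a range, and markers in list order. Alternatives were other pseudocounts, filters, scalings, lengths and thresholds. The genes and lists were chosen with earlier results of these data known.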

Additional observations from a re-analysis of the deposited data

How the results depend on the processing

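The number of integrin and laminin genes at least 2-fold higher in OIR, 3 of 30, depended on the log scale. It was 8 with a pseudocount of 0.1 (5.82% of all measured genes under the same setting) and 10 with 0.01 (6.28%). It was 6 after rescaling to TPM (4.04%), 6 with lens, muscle, erythrocyte, mitochondrial and rRNA genes left out of the total (3.92%), and 7 on CPM from the read counts (2.69%). The genes added by the first 2 of these rescalings were Itgb2, Itgb3 and Lamb3, all measured through OIR alone. The lower pseudocounts and CPM added the same genes, beside others. Genes measured through OIR alone had to be higher to be counted, so their addition supports nothing. A threshold of 1.5-fold gave 11 (9.11%) and one of 4-fold gave 0 (0.346%). By rules chosen after the data were seen, a ratio of read shares of at least 2 gave 10 (6.38%), and counting intervals beyond 1 gave 23 higher (36.7%) and 2 lower (14.7%). The count was 3 with an FPKM filter of 5 or none, under both centrings, with the authors' factors, genes at 0 left out, the rows of Itgam summed, and, added after the data were seen, the deposited gene length. None was at least 2-fold lower under the fold rules run. The median difference of 0.50 ranged from 0.37 with no filter to 0.61 on TPM. No change of setting turned the sign of Itga4, Itgb4 or Lama4. Depth limits Itgad, Itgax, Itgae, Itga11, Itgal and Itgb6, with at most 32 reads in either library. It also limits the ratios of Lamb3, Itgb3, Itgb2 and Itgb7, which had 13, 16, 19 and 24 reads in the control. No paired analysis was possible because each group is 1 library.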
